A study of Mus musculus with 4 samples.

Results

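The IL-4 receptor chains, the Janus kinases attached to them, the transcription factor STAT6 and the phosphatase SHP-1 are described here in mouse macrophages with and without the adaptor protein DAP12. The set was fixed by gene symbol and lists 9 genes, of which 8 were measured by 20 probe sets that name only that gene, out of 18193 genes on the array. These are the receptor chains Il4ra and Il13ra1, the kinases Jak1, Jak2, Jak3 and Tyk2, Stat6, and Ptpn6, which encodes SHP-1. The third receptor chain, Il2rg, was not analysed here.

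Macrophages were collected from the peritoneal cavity of mice given thioglycolate, which recruits inflammatory macrophages, and were kept for the 18-hour treatment period on permanox slides. There were 4 groups, each measured on 1 array: Dap12-KO with IL-4, Dap12-KO untreated, wild type (WT) with IL-4 and WT untreated. Dap12 is the former name of Tyrobp, whose product carries an ITAM signalling motif for partner receptors at the cell surface. The labels give neither age, sex, strain nor the number of animals behind an array, and they do not describe the deleted allele. The stated aim was to see what loss of DAP12 does to macrophage expression at rest and in the response to IL-4, and the question asked of these genes is whether cells of both genotypes hold the parts that receive and relay IL-4.

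IL-4 is received by receptors that share the IL-4Rα chain. In the type I receptor IL-4Rα pairs with the common gamma chain, and in the type II receptor, which IL-13 also uses, it pairs with IL-13Rα1. JAK1 sits on IL-4Rα, JAK3 on the common gamma chain, and TYK2 or JAK2 on IL-13Rα1. The kinases phosphorylate tyrosines of the IL-4Rα tail, STAT6 docks there, is phosphorylated in turn, and moves to the nucleus to switch on genes such as Arg1, while SHP-1 removes phosphate from parts of this pathway.

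Values are log2 probe set levels as the authors deposited them, and 1 log2 unit is 2-fold. With 1 array per group a difference between 2 arrays has no replicate check and no test, and 2-fold serves only as a size. Precision is limited by having so few arrays. Levels of different probe sets cannot be ranked against each other, because probes differ in how strongly they bind, so levels are compared between arrays within a probe set. In RNA from a whole culture, fewer cells of a type and less RNA per cell cannot be told apart.

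The arrays were not alike. The middle 50% of values spanned 2.54 log2 units on the IL-4 array of Dap12-KO, against 3.19 to 3.25 on the other arrays, so bright genes read low and dim ones high on it. Most differences of the 8 genes that use that array, and many of other genes, are therefore also given after cyclic loess. This is a rescaling that removes level-dependent shifts between arrays. Tyrobp, the targeted gene, read 13.27 with IL-4 and 14.03 untreated on the arrays labelled Dap12-KO, and 14.13 with IL-4 and 14.39 untreated on the WT arrays. The signal did not bear out the genotype label, and whether its probe set lies in the deleted part is not known, so the directions between genotypes given below follow the labels. Of 10 macrophage markers 9 were measured, and their median level was 12.22 and 12.97 on the Dap12-KO arrays with and without IL-4 and 12.43 and 13.06 on the WT arrays with and without IL-4. The genes Csf1r, Adgre1, Cd68 and Lyz2 were all above the level floor given below. The 4 B cell markers measured had medians of 8.10 and 8.70 on the Dap12-KO arrays with and without IL-4, and of 8.04 and 8.01 on the WT arrays with and without IL-4. Cd79a, Cd79b and Ms4a1 were above the floor on all arrays, but Pax5 only in Dap12-KO with IL-4, at 6.88. Single markers of other cells were bright too, such as S100a8 of neutrophils (up to 10.09) and Cma1 of mast cells (up to 8.98). The medians of those 2 lists lay between 5.77 and 6.90. The part of such cells in the values below was not tested.

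Promoter sequences of 3 genes are shown for orientation: Il13ra1, whose level differed most between arrays, Jak2, which differed upwards with IL-4, and Stat6, the factor itself. Each is the 250 bases before the gene start of the RefSeq promoter table for GRCm38.p6, on the plus strand, from 5′ to 3′. They lie at chrX:36111858-36112107 for Il13ra1, chr19:29251553-29251802 for Jak2 and chr10:127642736-127642985 for Stat6. The Stat6 window reaches into the gene as the RefSeq gene table bounds it, since that table and the promoter table use different starts. Capitals mark matches to GAGGAAG on either strand.
Il13ra1: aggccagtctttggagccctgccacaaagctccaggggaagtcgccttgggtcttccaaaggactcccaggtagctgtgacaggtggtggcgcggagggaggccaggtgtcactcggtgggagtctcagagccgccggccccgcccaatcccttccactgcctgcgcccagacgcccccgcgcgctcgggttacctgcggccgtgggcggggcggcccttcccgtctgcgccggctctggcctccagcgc
Jak2: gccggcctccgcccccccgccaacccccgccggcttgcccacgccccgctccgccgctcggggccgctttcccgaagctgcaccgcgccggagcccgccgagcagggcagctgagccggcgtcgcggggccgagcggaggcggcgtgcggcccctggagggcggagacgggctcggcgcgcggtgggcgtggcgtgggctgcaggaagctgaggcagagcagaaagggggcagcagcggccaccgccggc
Stat6: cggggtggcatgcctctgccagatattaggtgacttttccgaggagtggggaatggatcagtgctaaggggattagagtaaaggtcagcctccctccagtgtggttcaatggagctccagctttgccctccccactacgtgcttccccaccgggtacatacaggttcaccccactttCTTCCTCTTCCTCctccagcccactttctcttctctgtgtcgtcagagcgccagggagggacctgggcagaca

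The windows searched ran from 250 bases before to 50 bases after each start, on both strands, in RefSeq promoters of all 9 listed genes. The site bound by STAT6, TTC and GAA with 4 bases between them, was in 0 of the 9, and 6.95% of all 32851 promoters held a match. The form with 3 bases between, which other STATs bind, was also in 0 of the 9, against 8.3% of all promoters. GAGGAAG, a core bound by the macrophage factor PU.1, was in 1 of the 9, Stat6, against 13.6% of all promoters. Stat6 held it on the opposite strand, as CTTCCTC, at positions -73 and -67 relative to the start, and the matches share a base. The Il13ra1 and Jak2 windows were rich in G and C, with 70.8% and 80.8%, against 56.8% for Stat6. A match is only a run of letters, and no match says only that these letters are not in this window.

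All 8 measured genes passed the level floor of 6.39, the median of all values, on every array by their brightest probe set, which stands for the gene from here on. To show where background readings lie, 21 measured genes of other tissues, such as liver, pancreas, muscle and testis, were read on the same arrays by 47 probe sets. Their median was 5.60 and 5.38 on the Dap12-KO arrays with and without IL-4, and 5.23 and 5.29 on the WT arrays with and without IL-4. Single genes of that list read far above this, up to 10.64 for Mbp, the myelin basic protein gene, in untreated Dap12-KO. Whether the Mbp signal is background was not tested. Without Mbp the highest reading was 7.95, for Ttr, in Dap12-KO with IL-4. On the other arrays it was that of Ins2, at 7.37 in Dap12-KO untreated, 7.44 in WT with IL-4 and 7.35 in WT untreated. A level above the floor is therefore no proof of transcription. The genes were set against those readings only for Il13ra1 and Jak3 below, and in a rough count given in the last section.

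**Figure D1:**
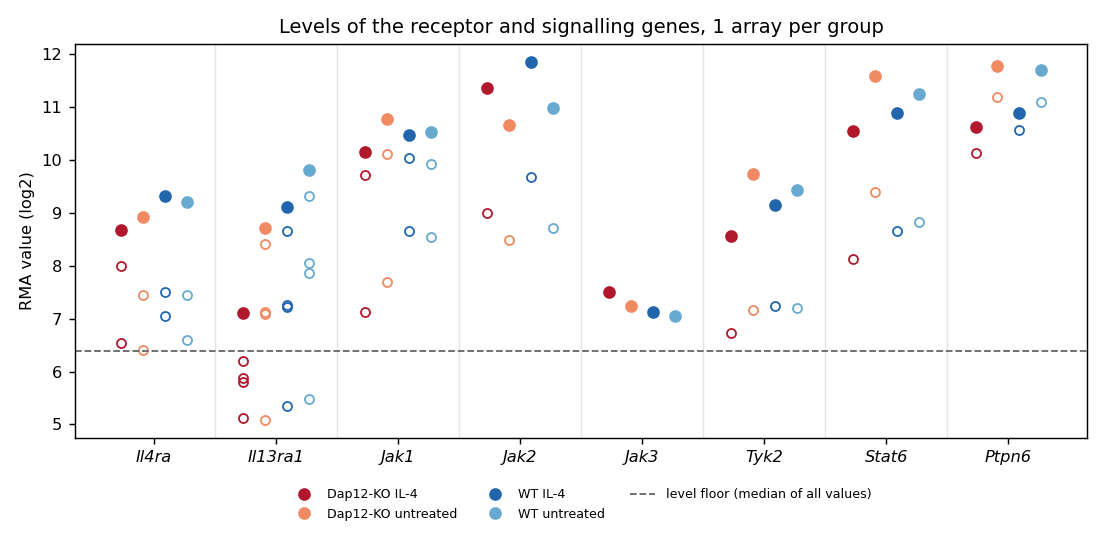
RMA value (log2) of the 8 genes on the 4 arrays, 1 array per group; filled points are the brightest probe set of a gene, open points its other probe sets, and the dashed line is the level floor of 6.39. Il13ra1 spans 2.70 log2 units over the arrays in its brightest probe set, and no other gene spans more than 1.19.

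Il4ra, the chain common to both receptor types, lies at chr7:125552271-125579474 in GRCm38.p6. It read 8.68 in Dap12-KO with IL-4, 8.92 in Dap12-KO untreated, 9.32 in WT with IL-4 and 9.20 in WT untreated. As deposited, the Dap12-KO arrays were lower than the WT arrays by this probe set, and all values lay within 0.64 log2 units. After cyclic loess the genotype difference with IL-4 turned from -0.64 to 0.08. The untreated genotype difference was -0.29, or -0.19 after cyclic loess. With IL-4 the gene differed by -0.24 in Dap12-KO and by 0.11 in WT. After cyclic loess the Dap12-KO difference turned to 0.42 and the WT one was 0.15. Another of its 3 probe sets, 1423996_a_at, read 7.998 in Dap12-KO with IL-4 and 7.45 in Dap12-KO untreated, against 7.50 in WT with IL-4 and 7.44 in WT untreated. The direction in Dap12-KO therefore depended on the probe set and the scaling, and no difference of the gene's brightest probe set reached 2-fold. The last probe set, 1447858_x_at, lay near the floor, between 6.40 and 7.04.

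Il13ra1, the second chain of the type II receptor, stood out from the other genes. It lies on the X chromosome at chrX:36112108-36171262. Its brightest probe set, 1427164_at, read 7.11 in Dap12-KO with IL-4, 8.72 in Dap12-KO untreated, 9.11 in WT with IL-4 and 9.81 in WT untreated. Both Dap12-KO values were below both WT values, and within each genotype the IL-4 array was the lower. The gene was 4.005-fold lower in Dap12-KO than in WT with IL-4 and 2.13-fold lower untreated. The log2 difference with IL-4 was -2.00, or -1.31 after cyclic loess, and the untreated difference was -1.09, or -1.001 after cyclic loess. With IL-4 it was lower by -1.61 in Dap12-KO (-0.97 after cyclic loess) and by -0.70 in WT (-0.66 after cyclic loess). The 7.11 in Dap12-KO with IL-4 lay below the highest other-tissue reading without Mbp on that array, 7.95. The sizes of differences that use it may therefore rest on a background reading, which was not tested.

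The same order of arrays was seen in 4 of the 5 Il13ra1 probe sets. Probe set 1454783_at read 5.89 and 8.42 in Dap12-KO with and without IL-4, against 8.66 and 9.31 in WT with and without IL-4. Probe set 1427165_at read 5.81 and 7.09 in Dap12-KO with and without IL-4, against 7.27 and 7.87 in WT with and without IL-4. Probe set 1451775_s_at read 6.20 and 7.13 in Dap12-KO with and without IL-4, against 7.22 and 8.04 in WT with and without IL-4. These 3 were below the floor in Dap12-KO with IL-4, so the size of their differences there rests on background readings. The fifth, 1425625_at, stayed between 5.09 and 5.48, below the floor on all 4 arrays. By the median over its probe sets Il13ra1 differed between genotypes by -1.38 with IL-4 and by -0.91 untreated.

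**Figure D2:**
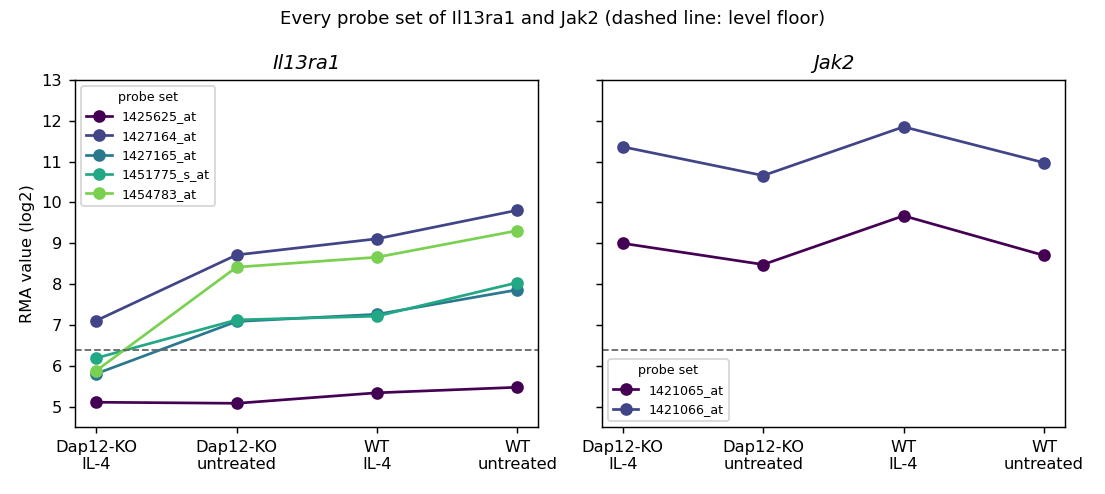
RMA value (log2) of every probe set of Il13ra1 (left) and Jak2 (right) on the 4 arrays; each line joins the values of 1 probe set and the dashed line is the level floor. Of the Il13ra1 probe sets 4 of 5 are lowest in Dap12-KO with IL-4 and highest in WT untreated, and both Jak2 probe sets are higher with IL-4 in each genotype.

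Among all 12767 genes tested the Il13ra1 differences lay near the low end. The Dap12-KO against WT difference was at percentile 1.42 with IL-4 and at 2.73 untreated, or 2.68 and 2.93 after cyclic loess. The IL-4 difference was at percentile 4.21 in Dap12-KO and at 3.06 in WT, or 6.61 and 3.15 after cyclic loess. Both IL-4 differences and both genotype differences share arrays, so they are not separate evidence. The IL-4 differences of both genotypes themselves differed by -0.91, or by -0.31 after cyclic loess and by -0.07 by the median over probe sets with cyclic loess, and this difference has no test. The genes with the pattern most like Il13ra1 over the 4 arrays, by Euclidean distance between mean-centred log2 values, were Dach1 at 0.16, Prokr1 at 0.19 and Tshz1 at 0.21.

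Jak2, a kinase that also serves the receptors for interferon gamma and GM-CSF, was the gene that differed most upwards with IL-4. It lies at chr19:29251803-29313095. Its brightest probe set read 11.36 in Dap12-KO with IL-4, 10.66 in Dap12-KO untreated, 11.85 in WT with IL-4 and 10.97 in WT untreated. Both IL-4 arrays were above both untreated arrays. The other probe set read 9.001 and 8.48 in Dap12-KO with and without IL-4, against 9.67 and 8.70 in WT with and without IL-4. By this probe set too both IL-4 arrays were above both untreated arrays. The gene's IL-4 difference was 0.70 in Dap12-KO (1.63-fold) and 0.88 in WT (1.84-fold), and after cyclic loess 1.29 in Dap12-KO and 0.91 in WT. In WT this difference lay at percentile 98.5 of all genes. Between genotypes Jak2 differed by -0.49 with IL-4, which turned to 0.16 after cyclic loess, and by -0.31 untreated. Over the 4 arrays the nearest patterns were those of Fyn at a distance of 0.15, Syn1 at 0.16 and Plcd1 at 0.18.

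Jak1, which is bound to IL-4Rα and to many other cytokine receptors, varied little. Its brightest probe set read 10.14 in Dap12-KO with IL-4, 10.78 in Dap12-KO untreated, 10.48 in WT with IL-4 and 10.53 in WT untreated. The lowest value was that of the narrower array, and after cyclic loess the IL-4 difference was 0.00 in Dap12-KO and -0.01 in WT. Probe set 1433804_at did not follow the others between genotypes, with 7.12 and 7.69 in Dap12-KO with and without IL-4, against 8.65 and 8.55 in WT with and without IL-4. That is a genotype difference of -1.53 with IL-4 (-0.97 after cyclic loess) and -0.86 untreated, where 1433803_at gave -0.33 with IL-4 (0.39 after cyclic loess) and 0.19 untreated.

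Jak3, the partner of the common gamma chain and a kinase best known from lymphocytes, varied least of the 8 genes over the arrays. Its only probe set read 7.50 in Dap12-KO with IL-4, 7.25 in Dap12-KO untreated, 7.13 in WT with IL-4 and 7.05 in WT untreated. The values span 0.46 log2 units, and none of the differences reached 2-fold. On each array Jak3 read below the highest reading of the other-tissue genes even without Mbp, which was 7.35 to 7.95 by array. Whether the Jak3 signal is background was not tested. A further 2 probe sets name Jak3 together with Insl3 and were not used. T and NK cell markers, read because such cells also hold JAK3, had a median of 6.35 and 6.78 in Dap12-KO with and without IL-4, and of 6.52 in WT with and without IL-4, over 7 of 9 markers measured, of which 3 were below the floor on all arrays. Markers of B cells, which are lymphocytes too, are given above and had medians of 8.01 to 8.70. The part of either in the Jak3 signal was not tested.

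Tyk2, the other kinase of the type II receptor, lies at chr9:21104068-21131393. It read 8.55 in Dap12-KO with IL-4, 9.72 in Dap12-KO untreated, 9.15 in WT with IL-4 and 9.43 in WT untreated. In each genotype the IL-4 array was the lower, by -1.17 in Dap12-KO and by -0.28 in WT, or by -0.50 and -0.24 after cyclic loess. Its second probe set was lower by -0.44 in Dap12-KO with IL-4 (-0.26 after cyclic loess) and differed by 0.03 in WT. The 3 genes nearest in pattern were Prex1 (0.02), Map11 (0.04) and 4833438C02Rik (0.05), where the numbers are distances in log2 units.

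Stat6 and Ptpn6 were bright on every array and, as deposited, shared one order of arrays. Stat6, at chr10:127642955-127660987, read 10.55 in Dap12-KO with IL-4, 11.58 in Dap12-KO untreated, 10.88 in WT with IL-4 and 11.23 in WT untreated. Ptpn6, at chr6:124720707-124738709, read 10.61 in Dap12-KO with IL-4, 11.77 in Dap12-KO untreated, 10.89 in WT with IL-4 and 11.69 in WT untreated. In both genes both IL-4 arrays were below both untreated arrays, and the untreated Dap12-KO array was the highest. After cyclic loess Stat6 no longer kept this order, with 11.04 in Dap12-KO with IL-4 and 11.02 in WT untreated. Ptpn6 still had both IL-4 arrays below both untreated arrays. Its IL-4 arrays changed places, with 11.09 in Dap12-KO and 10.71 in WT. The untreated Dap12-KO array stayed the highest, at 11.46 for Stat6 and 11.66 for Ptpn6.

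The sizes depended on the scaling in Dap12-KO. Stat6 was lower with IL-4 by -1.02 in Dap12-KO and by -0.36 in WT, or by -0.42 and -0.32 after cyclic loess. Ptpn6 was lower by -1.16 in Dap12-KO and by -0.81 in WT, or by -0.57 and -0.77 after cyclic loess. The second probe sets went the same way, with -1.27 and -0.19 for Stat6 and -1.04 and -0.54 for Ptpn6 in Dap12-KO and WT. In Dap12-KO these were -0.62 for Stat6 and -0.43 for Ptpn6 after cyclic loess. In WT the Ptpn6 difference lay at percentile 2.22 of all genes. Between genotypes Stat6 differed by -0.32 with IL-4 and by 0.34 untreated, and Ptpn6 by -0.27 and 0.08. After cyclic loess all 4 of these genotype differences were positive, between 0.18 and 0.44. Nearest in pattern to Stat6 were Eif4g3 (0.03), Brd9 (0.05) and Fam3c (0.06), and to Ptpn6 they were Sema3c (0.08), Epsti1 (0.08) and Taldo1 (0.10), again as distances in log2 units.

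Counted at 2-fold in Dap12-KO with IL-4, 4 of 8 genes were lower (Il13ra1, Tyk2, Stat6 and Ptpn6) and 0 higher, where 17.6% of all genes were lower and 8.04% higher. The median of the 8 was -0.83 and that of all genes -0.40. After cyclic loess 0 were lower and 1 was higher, Jak2, where 6.07% of all genes were lower and 9.95% higher, with a median of -0.21 against 0.07 for all genes. In WT with IL-4, 0 of 8 were past 2-fold in either direction, where 1.21% of genes were higher and 1.25% lower, and the median was -0.16 against -0.03. After cyclic loess it was again 0 of 8, where 1.33% of genes were higher and 1.13% lower.

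Between genotypes 1 of 8, Il13ra1, was at least 2-fold lower with IL-4 and 0 were higher, where 17.6% of all genes were lower and 10.9% higher. After cyclic loess Il13ra1 was still the 1 gene past 2-fold, where 5.51% of all genes were lower and 12.6% higher. Untreated, Il13ra1 was again the 1 gene lower and 0 were higher, where 3.41% of all genes were lower and 3.12% higher, or 2.94% lower and 3.74% higher after cyclic loess. For the difference of both IL-4 responses 0 of 8 reached 2-fold, where 8.15% of genes were higher and 14.8% lower, or 9% higher and 5.75% lower after cyclic loess.

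**Figure D3:**
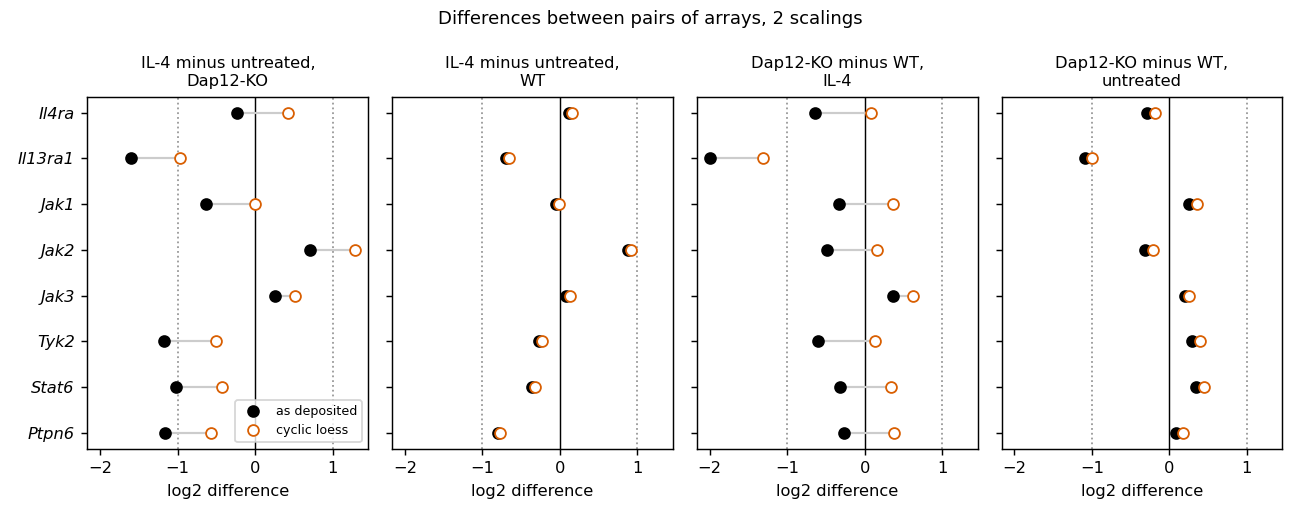
Log2 difference between 2 arrays for each gene (rows) in the 4 comparisons (panels), as deposited (filled) and after cyclic loess (open); dotted lines mark 2-fold. Il13ra1 is left of 0 and Jak2 right of 0 in both IL-4 panels under either scaling, and the points move between scalings mainly in the panels that use the Dap12-KO array with IL-4.

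The IL-4 effect over both genotypes could be tested with limma, with the genotypes as replicates and 1 residual degree of freedom. Of all genes 0.54% rose and 1.1% fell at an adjusted p under 0.05, and 0 of the 8 did. The log2 change of Il13ra1 was -1.15 ± 0.42 (SE, limma adjusted p = 0.192, lower in both genotypes). For Ptpn6 it was -0.98 ± 0.42 (SE, limma adjusted p = 0.339, lower in both) and for Jak2 0.79 ± 0.42 (SE, limma adjusted p = 0.548, higher in both). Their unadjusted limma p-values were 0.00622, 0.0197 and 0.0607. Tyk2 and Stat6 had limma adjusted p-values of 0.611 and 0.637, and the other 3 were at 0.796 or above. The fit gave every gene the same standard error, so these values follow the size of the change alone. After cyclic loess limma called 0 of all genes, with 814 at an unadjusted p under 0.05, among them Jak2 with 1.10 ± 0.24 (SE, unadjusted p = 0.00795, limma adjusted p = 0.526), Il13ra1 and Ptpn6. Over 10 alternatives the limma adjusted p ranged from 0.143 to 0.923 for Il13ra1 and from 0.347 to 0.923 for Jak2.

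Genes known to be switched on by IL-4 were higher in both genotypes. Of 16 such genes 14 were at least 2-fold higher with IL-4 in Dap12-KO and 14 in WT, with 0 lower in either. Of all genes 8.04% were higher in Dap12-KO and 1.21% in WT. The median difference of the 16 was 1.99 in Dap12-KO and 1.88 in WT. The arginine-consuming enzyme Arg1 read 14.37 and 12.45 in Dap12-KO with and without IL-4, against 14.66 and 11.31 in WT with and without IL-4. The chemokine gene Ccl22 differed by 2.98 in Dap12-KO and 2.42 in WT, the chitinase-like Chil3 by 3.09 and 2.38, and the adhesion molecule Cdh1 by 4.003 and 2.05. After cyclic loess the Dap12-KO differences of Ccl22, Chil3 and Cdh1 were 3.58, 3.57 and 4.63. With limma 11 of the 16 rose and 0 fell. After cyclic loess, with quantile normalization and with no floor limma called 0 of all genes, so every limma call given here and below is lost under those settings. The list was drawn up with earlier results of these arrays known, so its direction is not independent evidence.

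Among the feedback inhibitors, Cish, Socs2 and Socs1 were higher with IL-4 in both genotypes. Of 19 negative regulators tested, 3 were at least 2-fold higher and 1 lower with IL-4 in Dap12-KO, and 6 were higher and 0 lower in WT, with medians of -0.41 and 0.25. After cyclic loess 5 were higher and 0 lower in Dap12-KO, with a median of 0.20. Of all genes 8.04% were higher and 17.6% lower in Dap12-KO, or 9.95% and 6.07% after cyclic loess. In WT these shares were 1.21% and 1.25%. Cish read 11.23 and 7.74 in Dap12-KO with and without IL-4, against 11.57 and 8.75 in WT with and without IL-4. Socs2 read 9.33 and 6.34 in Dap12-KO with and without IL-4, against 11.77 and 8.63 in WT with and without IL-4, so it was lower in Dap12-KO by -2.44 with IL-4 (-1.72 after cyclic loess) and by -2.29 untreated, the untreated Dap12-KO value being below the floor. Socs1 differed with IL-4 by 2.22 in Dap12-KO (2.48 after cyclic loess) and 1.59 in WT, where the untreated value, 6.16, was below the floor. These 3 rose with limma (adjusted p = 1.34e-10, 5.07e-10 and 0.00115). Also at 2-fold with IL-4 in WT was the ubiquitin ligase gene Cblb, by 1.25, and in Dap12-KO Pias3 was lower by -1.14 (-0.77 after cyclic loess). Il13ra2, the decoy receptor for IL-13, named here after its values were seen, was below the floor on all 4 arrays, between 5.73 and 6.15.

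In the branch from the receptor to IRS proteins and PI3K, 1 of 13 genes was higher and 4 lower with IL-4 in Dap12-KO, and 0 of 13 passed 2-fold in WT, with medians of -0.79 and -0.06. After cyclic loess 4 were higher and 0 lower in Dap12-KO, with a median of -0.15. The shares over all genes in Dap12-KO were 8.04% higher and 17.6% lower, or 9.95% and 6.07% after cyclic loess. In WT they were 1.21% and 1.25%. Pik3cd, the leukocyte PI3K catalytic subunit, read 13.42 and 10.69 in Dap12-KO with and without IL-4, against 10.10 and 9.58 in WT with and without IL-4. It was the 1 gene of the branch that rose with limma (adjusted p = 0.0111), with a difference of 2.73 in Dap12-KO (3.34 after cyclic loess) and 0.53 in WT. By the median over probe sets 0 of 12 genes of the branch were higher and 2 lower with IL-4 in Dap12-KO. Pik3cd was thus not counted past 2-fold by that measure. Irs2, the docking protein of the IL-4 receptor in macrophages, was higher in Dap12-KO than in WT by 1.67 with IL-4 (2.18 after cyclic loess) and by 1.19 untreated. The PI3K subunit Pik3cb was lower by -2.01 with IL-4 (-1.34 after cyclic loess) and by -1.63 untreated. Lower with IL-4 in Dap12-KO were Pik3cg (-1.57), the lipid phosphatase gene Inpp5d (-1.39) and Pik3r1 (-1.32), or -0.91, -0.75 and -0.65 after cyclic loess.

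Of 4 other STAT genes tested 0 passed 2-fold in any of the comparisons of 2 arrays. All 4 were lower with IL-4 in Dap12-KO, with a median of -0.82, or -0.20 after cyclic loess. Of all genes 66.1% were lower with IL-4 in Dap12-KO as deposited and 45.2% after cyclic loess. Of 20 other JAK-using receptor chains tested, 1 was higher and 1 lower with IL-4 in Dap12-KO, and 3 were higher and 0 lower in WT. Over all genes 8.04% were higher and 17.6% lower in Dap12-KO, and 1.21% higher and 1.25% lower in WT. The shared chain of the IL-6 family, Il6st, was higher with IL-4 by 1.16 in Dap12-KO (1.76 after cyclic loess) and by 1.53 in WT. The IL-10 receptor chain Il10ra was lower by -1.75 in Dap12-KO (-1.13 after cyclic loess) and by -0.61 in WT. By the median over probe sets 0 of 19 chains were higher and 1 lower in Dap12-KO, so Il6st was not counted past 2-fold there. Lifr and the G-CSF receptor Csf3r were higher in WT with IL-4, by 1.18 and 1.16, but Lifr was below the floor on the other 3 arrays, so its size rests on background readings. The cytokine genes Il4, Il2, Il7 and Il21 were below the floor on all 4 arrays. Il15 read 6.22 and 8.60 in Dap12-KO with and without IL-4, against 6.81 and 7.54 in WT with and without IL-4. It fell with limma (adjusted p = 0.0187). Its value in Dap12-KO with IL-4 was below the floor, so the size of the difference there rests on a background reading.

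**Figure D4:**
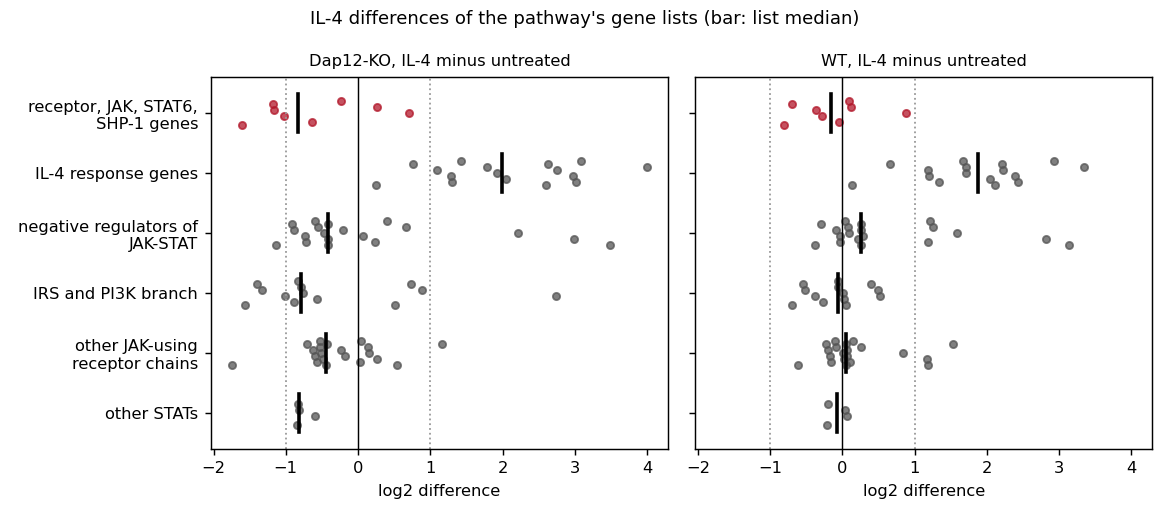
Log2 difference between the IL-4 and the untreated array for each gene of the pathway's lists above the level floor (points), in Dap12-KO (left) and WT (right); black bars are list medians and dotted lines mark 2-fold. The 16 IL-4 response genes centre on 1.99 in Dap12-KO and 1.88 in WT, while the 8 receptor and signalling genes centre on -0.83 and -0.16. All genes tested centre on -0.40 and -0.03. After cyclic loess, not drawn here, the 8 centre on -0.21 in Dap12-KO and all genes on 0.07.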

How the data were processed

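Log2 levels per probe set were deposited by the authors; RMA is named, without a version, per the submitters' processing notes. Per the labels' protocols, cRNA was made with 2 amplification cycles, which favour the 3' part of transcripts. Quantile normalization is usual in RMA, but 1 column was narrower than the others, and why is not given in the sources used here. No detection call or depth stands behind a value.

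Genes were named from GEO's platform annotation through Entrez identifiers and the RefSeq table of GRCm38.p6 (34741 of 34945 probe sets with 1 gene matched). Of 45101 probe sets, 932 named several genes and entered no gene. The brightest probe set stands for a gene, and 12767 of 18193 genes had a value of 6.39 or more. Differences were taken between arrays for 5 comparisons. The IL-4 effect in both genotypes together was fitted with limma 3.58.1 (R 4.3.3), genotype as a block, Benjamini-Hochberg adjusted over all genes. Nothing says that the arrays came from separate animals. With 1 array per group, the residual of this fit is the difference between the IL-4 responses of the genotypes. The p-values are scaled by that difference, in which an effect of genotype and technical spread cannot be told apart. They measure no spread between animals. Named genes were all members, up to 4 genes per list and comparison at 2-fold, and the 3 nearest patterns of members spanning 1 log2 unit or more. Members and lists were chosen with earlier results of these data known. Alternatives were cyclic loess (3 iterations), quantile normalization, median centring, the median over probe sets, no s_at or x_at probe sets, other floors, a 3-fold threshold, an intensity trend and no genotype term.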

Additional observations from a re-analysis of the deposited data

Results flagged for a closer look

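Among the 8 genes and the listed pathway genes that passed 2-fold and were named by the rule given under processing, these had effects in opposite directions under the same contrast. Each was measured on 1 array per group, so the difference was not tested. The value given is the Dap12-KO IL-4 difference minus that of WT, in log2 units. The IL-4 difference had opposite signs in Dap12-KO and WT for Il4ra (-0.35), Socs6 (-1.76), Socs7 (-1.14) and Pias2 (-0.89). The genotype difference had opposite signs with IL-4 and untreated for Tyk2 (-0.90), Stat6 (-0.67), Jak1 (-0.58) and Ptpn6 (-0.35). It also did for Socs6 (-1.76), Il15 (-1.64), Arg1 (-1.42), Il10ra (-1.14), Pik3r1 (-1.06), Lifr (-1.03), Pdcd1lg2 (0.90), Inpp5d (-0.87), Pias3 (-0.84) and Mgl2 (-0.32). After cyclic loess the effects of Il4ra, Tyk2, Stat6, Jak1 and Ptpn6 no longer had opposite signs. Those of Il15, Lifr, Pdcd1lg2, Pias3, Pik3r1 and Socs7, and the genotype differences of Socs6, still did.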

How the results depend on the processing

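The arrays carry no replicate numbers to pair on, and the limma fit pairs the treatments within each genotype. Among the recomputed differences of the 8 genes, 262 moved by under 1.5-fold and kept their side of 2-fold, 53 did not, and no difference past 2-fold changed sign. The 262 hold 40 from no floor, 35 from the higher floor and 40 from no s_at or x_at probe sets. Those settings could not change a value of these genes, so the pooled count is no measure of stability. Cyclic loess moved 18 and kept 22, and with the median over probe sets it moved 17 and kept 23. Genes at 2-fold with IL-4 in Dap12-KO numbered 4 as deposited, 1 with cyclic loess, with it and the median over probe sets (added after seeing the data) or at 3-fold, and 2 with quantile normalization. Between genotypes with IL-4 the 1 gene became 0 by the median over probe sets with cyclic loess; untreated it became 0 by the median over probe sets with either scaling and at 3-fold. For the difference of responses, median centring gave 2 (Il13ra1 and Tyk2) instead of 0. Over all genes, the counts with IL-4 in Dap12-KO, between genotypes with IL-4 and for the difference of responses were 3275, 3632 and 2934. They were 1993 (1238 higher, 755 lower), 2258 (1572 higher, 686 lower) and 1836 (1120 higher, 716 lower) with cyclic loess, 1497, 1869 and 1402 with the median over probe sets added, 2120, 2123 and 1714 with the higher floor, and 811, 986 and 662 at 3-fold. At 3-fold, IL-4 in WT gave 92 instead of 315 and the untreated genotypes 229 instead of 833. The limma fit called 210 genes, 118 with an intensity trend, 7 with no genotype term, 6 by the median over probe sets with cyclic loess, and 0 with cyclic loess (814 at an unadjusted p under 0.05), quantile normalization (598) or no floor (962); it called 0 of the 8 genes under each. As a rough count, since probes differ, 4 of the 8 genes read above the brightest gene of other tissues on the untreated array of each genotype, or 7 without Mbp or against the array's 75th percentile. With IL-4 it was 4 in Dap12-KO and 7 in WT, or 6 and 7 without Mbp or against the array's 75th percentile. Jak3 was above none of these cuts on any array, and Il13ra1 was above none in Dap12-KO with IL-4. The cause of these shifts was not tested.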
